A study of Populus trichocarpa with 18 samples.

Results

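Gene counts of Region 2 were compared with those of Region 1 in the differentiating xylem of tension wood from Populus trichocarpa (black cottonwood). The comparison rests on 6 of the study's 18 libraries, 3 from each of these bands, chosen by their labels alone. All 8878 genes listed for tension wood entered it, including 4531 that are not listed for normal wood, and 8477 of them had at least 1 count in the 6 libraries. The trees were wild type and came from branch cuttings, and the stems were kept bent for 21 days. Debarked stem was cut into sections 16 µm thick, and a laser cut the xylem into bands. Region 2 and Region 1 are bands of equal set width, meant to hold xylem of different differentiation stages. About 1600000 µm2 of a region went into each biological replicate, so a library is a pool of cut tissue. Each replicate number has 1 library of each region, and the labels do not say how many trees it holds. The labels do not say which band lies closer to the cambium.

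Tension wood forms on the upper side of a leaning broadleaf stem and pulls the stem upright. In poplar its fibres lay down an inner gelatinous layer, rich in cellulose and poor in lignin, inside an ordinary secondary wall. Xylem cells are born in the cambium, enlarge, build secondary walls of cellulose, xylan and lignin, and most then die. Fasciclin-like arabinogalactan proteins, which are cell surface glycoproteins, are known to be abundant in poplar tension wood fibres.

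Region 2 libraries held fewer counts than Region 1 libraries in each replicate. The totals were 39139, 56458 and 39391 counts in Region 2 for replicates 1 to 3, against 88523, 89358 and 65215 counts in Region 1. The groups did not overlap, and within a replicate the Region 2 total was 0.442 to 0.632 of the Region 1 total (exact paired permutation p = 0.25, two-sided, the smallest that 3 pairs allow). The cause was not tested. In tissue pools such as these, a count total cannot tell fewer cells or less RNA per cell from steps of library preparation and sequencing. Thinned to a common 39139 counts, Region 2 libraries held 4514 ± 103 genes with a count and Region 1 libraries 4370 ± 121 (SD, n = 3; higher in Region 2 in 2 of 3 replicates; exact paired permutation p = 0.5). A floor of 3 counts stood at 53.1 to 76.6 CPM in Region 2 libraries and at 33.6 to 46.0 CPM in Region 1 libraries, where CPM is the count scaled to a library total of 1000000.

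Thinned to equal depth, libraries of different bands correlated about as closely as replicates of 1 band. Across the 1476 tested genes, Pearson's r of log2(CPM + 50) had a median of 0.805 over the 9 pairs of a Region 2 with a Region 1 library (range 0.785 to 0.818). Over the 6 pairs within a region it was 0.805 as well (0.797 to 0.817). Genes are the points of these correlations and are not independent of each other. Most of them were sparse, as 976 averaged at most 374.5 CPM. Counting error lowers r within and between regions alike, so the equal r cannot tell whether many genes differ modestly. Of the genes without a count in Region 1, 1276 had a count in Region 2, and 8 of these had one in all 3 Region 2 libraries. None of the 1276 reached more than 8 counts over the 3 Region 2 libraries. Conversely, 2018 genes were counted in Region 1 alone, 59 of them in all 3 of its libraries, with at most 11 counts over these libraries. So no gene with more than 11 counts in 1 band was without a count in the other. These counts were not thinned and Region 1 libraries were deeper in each replicate, so 1276 and 2018 do not compare the bands at equal depth.

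Of the 1476 genes tested, 2 differed between the bands, 1 higher and 1 lower in Region 2, which is 0.136% of those tested and 0.0678% in each direction. The test was edgeR's quasi-likelihood test with the biological replicate as a block and Benjamini-Hochberg adjusted p under 0.05. An unadjusted p under 0.05 was reached by 65 genes (4.4%), 41 higher (2.78%) and 24 lower (1.63%). The deposited identifiers come without descriptions, and 0 of them matched the reference gene table, so neither gene is given a name or role here. DESeq2 on the same genes called 0, with 19 at an unadjusted p under 0.05.

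Potri.010G012100 was the gene called higher. It had 11906, 13727 and 17441 CPM in the Region 2 libraries of replicates 1 to 3, against 10291, 9926 and 10090 CPM in Region 1. All 3 Region 2 values lay above all Region 1 values, and they were also more spread (14358 ± 2821 CPM in Region 2 and 10102 ± 183 CPM in Region 1; SD, n = 3). The log2 fold change was 0.50 (SE 0.09, adjusted p = 0.00258 by edgeR), a fold of 1.41 with a 95% interval from 1.24 to 1.61. Within replicates 1 to 3 the log2 ratios were 0.21, 0.47 and 0.79, so replicate 3 showed the widest gap. On that scale the interval ran from 0.31 to 0.69, and the ratios of replicates 1 and 3 lay outside it. The interval rests largely on spread shared across genes rather than on these 3 ratios. Potri.010G012100 was also 1 of the 10 most abundant genes of the 6 libraries.

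The level of Potri.010G012100 in Region 3 was 16401 ± 419 CPM (SD, n = 3), above all 3 Region 1 values of tension wood. In normal wood it had 11703, 7908 and 5655 CPM in Region 2 and 10367, 12585 and 6297 CPM in Region 1, and these groups overlapped. There the log2 fold change of Region 2 over Region 1 was -0.24 (SE 0.19, adjusted p = 0.815 by edgeR). The difference between the woods in this change, tension minus normal, did not pass the test, and its size depended on the scaling. With TMM factors taken over all 18 libraries it was 0.28 on the log2 scale (SE 0.36, adjusted p = 0.932 by edgeR). Those factors differed between the bands of tension wood, at 0.60 to 0.68 in Region 2 and 0.43 to 0.49 in Region 1, and they moved the median difference of all 663 genes to -0.40. With TMM factors taken within each wood, a setting chosen after the data were seen, the median was 0.07 and the difference for this gene was 0.75 (SE 0.20, unadjusted p = 0.000249, adjusted p = 0.165 by edgeR). With library totals alone it was 0.72 (SE 0.20, adjusted p = 0.238).

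Potri.015G129400 was the gene called lower. It had 1303, 1771 and 1193 CPM in Region 2, from 51, 100 and 47 counts, against 2960, 3615 and 1809 CPM in Region 1, from 262, 323 and 118 counts. Every Region 2 library lay below every Region 1 library, by a narrow margin at the nearest pair of libraries. The log2 fold change was -0.95 (SE 0.19, adjusted p = 0.00424 by edgeR), a fold of 0.517 with a 95% interval from 0.396 to 0.674. Region 3 libraries averaged 1457 ± 380 CPM (SD, n = 3), close to the 1422 ± 307 CPM of Region 2 and below the 2795 ± 914 CPM of Region 1. In normal wood the gene had 2 counts over 3 Region 2 libraries and 14 over 3 Region 1 libraries, and the difference between the woods was 1.11 on the log2 scale with TMM over both woods (SE 0.99, adjusted p = 0.880 by edgeR) and 1.70 with TMM within each wood (SE 0.99, adjusted p = 0.889).

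**Figure D1:**
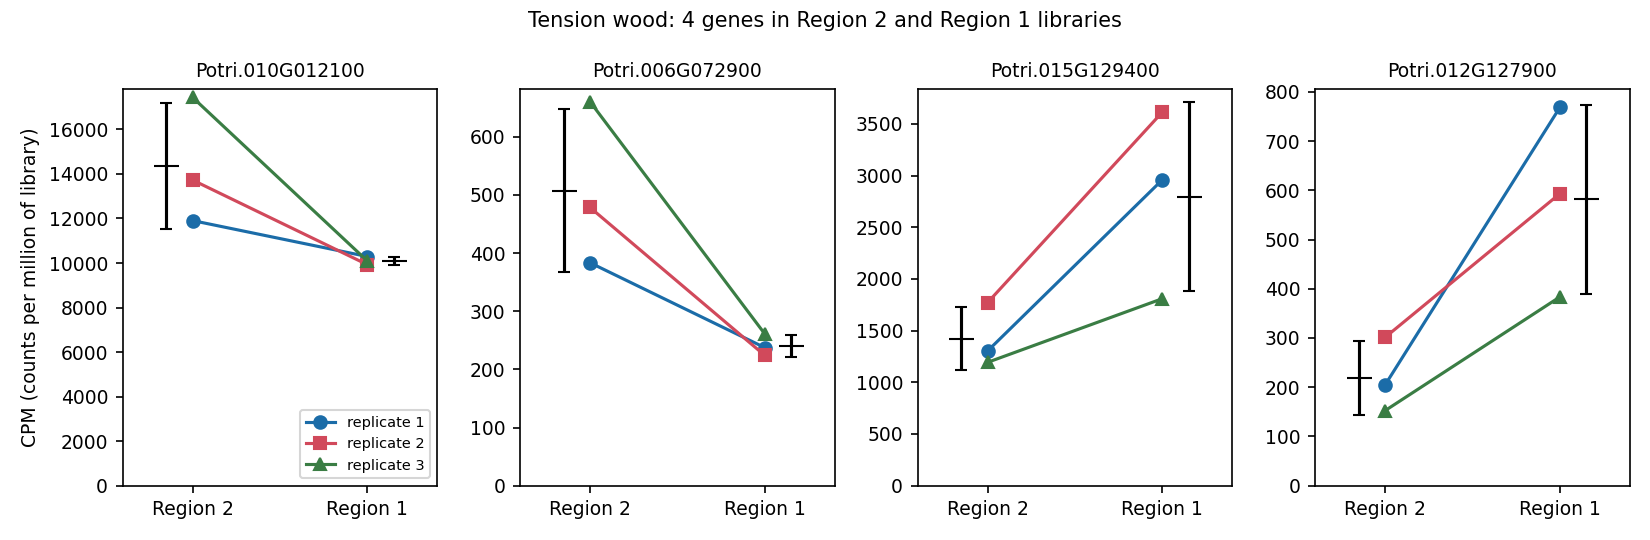
CPM of 4 genes in tension wood Region 2 (left) and Region 1 (right); each line joins the libraries of 1 biological replicate, and black bars give mean and SD (n = 3). Potri.010G012100 and Potri.006G072900 lie higher in Region 2 in all 3 replicates, while Potri.015G129400 and Potri.012G127900 lie lower.

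Neither call was kept in every fit that left out 1 replicate, although the log2 fold changes kept their sign. Whether a call was lost through the replicate left out or through the smaller number of libraries was not tested. The call of Potri.010G012100 was lost without replicate 1, 2 or 3 (log2 fold changes 0.64, 0.56 and 0.32; adjusted p = 0.105, 0.900 and 0.979 by edgeR), and over all alternatives its adjusted p ran from 2.09e-08 to 1.00. That of Potri.015G129400 was lost without replicate 1 or 2 (log2 fold changes -0.84 and -0.87; adjusted p = 0.155 and 0.900 by edgeR) and kept without replicate 3 (adjusted p = 0.00753), with a range of 6.47e-06 to 0.900. With all replicates, the DESeq2 Wald test kept neither call. It gave the upper end of the range of Potri.010G012100 and an adjusted p of 0.116 for Potri.015G129400.

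**Figure D2:**
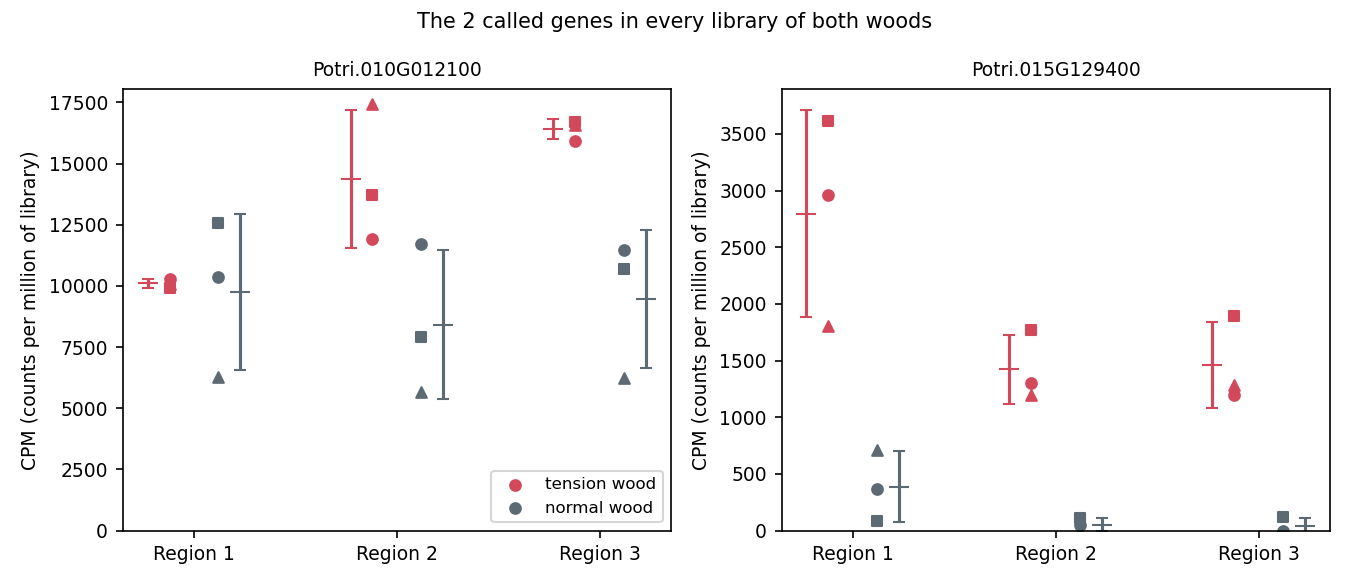
CPM of the 2 called genes in Regions 1 to 3 of tension wood (red) and normal wood (grey); circles, squares and triangles are replicates 1, 2 and 3, and bars give mean and SD (n = 3). Potri.010G012100 averages 14358 CPM in Region 2 and 10102 CPM in Region 1 of tension wood, and 8422 and 9750 CPM in those regions of normal wood.

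The next genes by p that had no overlap between the bands, which alone gives the same sign in 3 replicates, did not pass the test. There were 82 such genes higher and 83 lower in Region 2. Together with the called gene of each direction they made up 5.62% and 5.69% of all tested genes. For 3 against 3 libraries, no overlap corresponds to an unpaired exact permutation p of 0.1, counting both directions. The 10 first by p in each direction had log2 values from 0.56 to 1.87 and from -2.33 to -0.33. Potri.012G127900 had 204, 301 and 152 CPM in Region 2 against 768, 593 and 383 CPM in Region 1, from 31 and 146 counts in all. Its log2 value was -1.36 (SE 0.37, adjusted p = 0.228 by edgeR, range over the alternatives 0.0443 to 1.00). Potri.006G072900 had 383, 478 and 660 CPM in Region 2 against 237, 224 and 261 CPM in Region 1, from 68 and 58 counts in all. Its log2 value was 1.07 (SE 0.36, adjusted p = 0.963 by edgeR, range over the alternatives 0.128 to 1.00). In the fit of the 6 libraries of these bands alone, which could test 1886 genes, 4 were called. The added 2 were Potri.012G127900 (adjusted p = 0.0443 by edgeR) and a member of the monolignol list described below (adjusted p = 0.0451), both lower in Region 2.

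Over all 1476 genes the log2 fold changes centred on -0.00054, with 90% of them between -0.66 and 0.75. Above 1 lay 35 genes and below -1 lay 11. All Region 2 libraries lay above all Region 1 libraries for 83 genes (5.62%) and below them for 84 (5.69%). The 197 tested genes that normal wood does not list were set beside the other 1279. Their median log2 value was 0.04 and 9 of them reached an unadjusted p under 0.05, against -0.0043 and 56 genes among the others, and 0 and 2 genes were called.

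**Figure D3:**
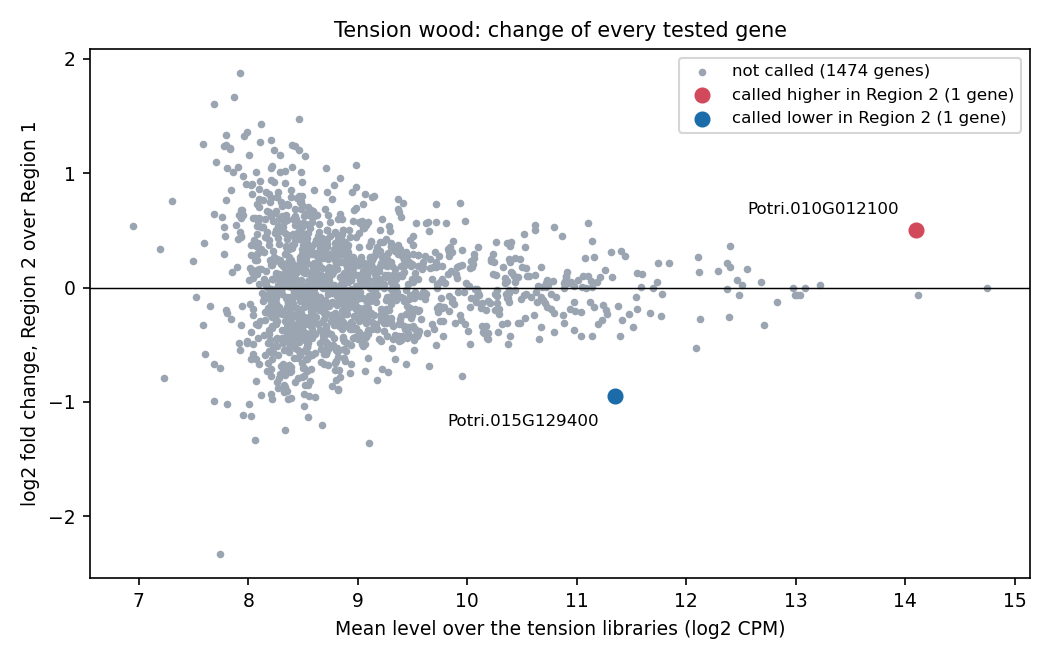
Log2 fold change of Region 2 over Region 1 against the mean level (log2 CPM) for the 1476 tested genes of tension wood. The 2 called genes stand out at 0.50 and -0.95, and the spread of the other genes narrows as the level rises.

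How small a difference could be seen depended on the level. Among the 100 most abundant tested genes the 95% interval of the log2 fold change reached a median of 0.38 to each side, and for 98 of them it lay within a change of 2-fold (log2 -1 to 1). The next 400 genes had a median half-width of 0.62, and 325 of their intervals lay within that range. For the remaining 976 genes the half-width was 0.93, and the intervals of 189 lay within it. In all, 612 genes (41.5%) had an interval within 2-fold. For the others the interval reached past 2-fold, so a difference of that size was not excluded for them, and Potri.015G129400 was among these. The 10 most abundant genes took 9.54% ± 0.31 of the counts in Region 2 and 9.27% ± 0.25 in Region 1 when ranked in each library (SD, n = 3). Apart from Potri.010G012100, the 10 genes ranked highest over the 6 libraries had log2 values from -0.13 to 0.02.

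Gene groups were described with 8 lists of poplar wall genes, whose identifiers were recalled from earlier publications and could not be checked against an annotation. Of their 87 identifiers 68 occur in the tension table and 49 could be tested. None of the 49 was called in either direction by edgeR on the 9 tension libraries, against 0.136% of all 1476 tested genes. An unadjusted p under 0.05 by the same test was reached by 7 of the 49, against 65 (4.4%) of all tested genes. These rates are not matched for level, and many list members were abundant. The median SE was 0.19 among the 100 most abundant tested genes and 0.46 among the 976 least abundant. DESeq2 called none either. The fit of Regions 1 and 2 alone and limma voom each called 1 member, the same monolignol gene. The cellulose synthase and fasciclin-like families hold close copies, whose tags the counting may have shared among them. Log2 values were below 0 for 32 members and above 0 for 17, against 740 (50.1%) and 736 (49.9%) of all tested genes. The tissue label could be checked only by these lists, since no list for tissues outside the xylem had identifiers.

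**Figure D4:**
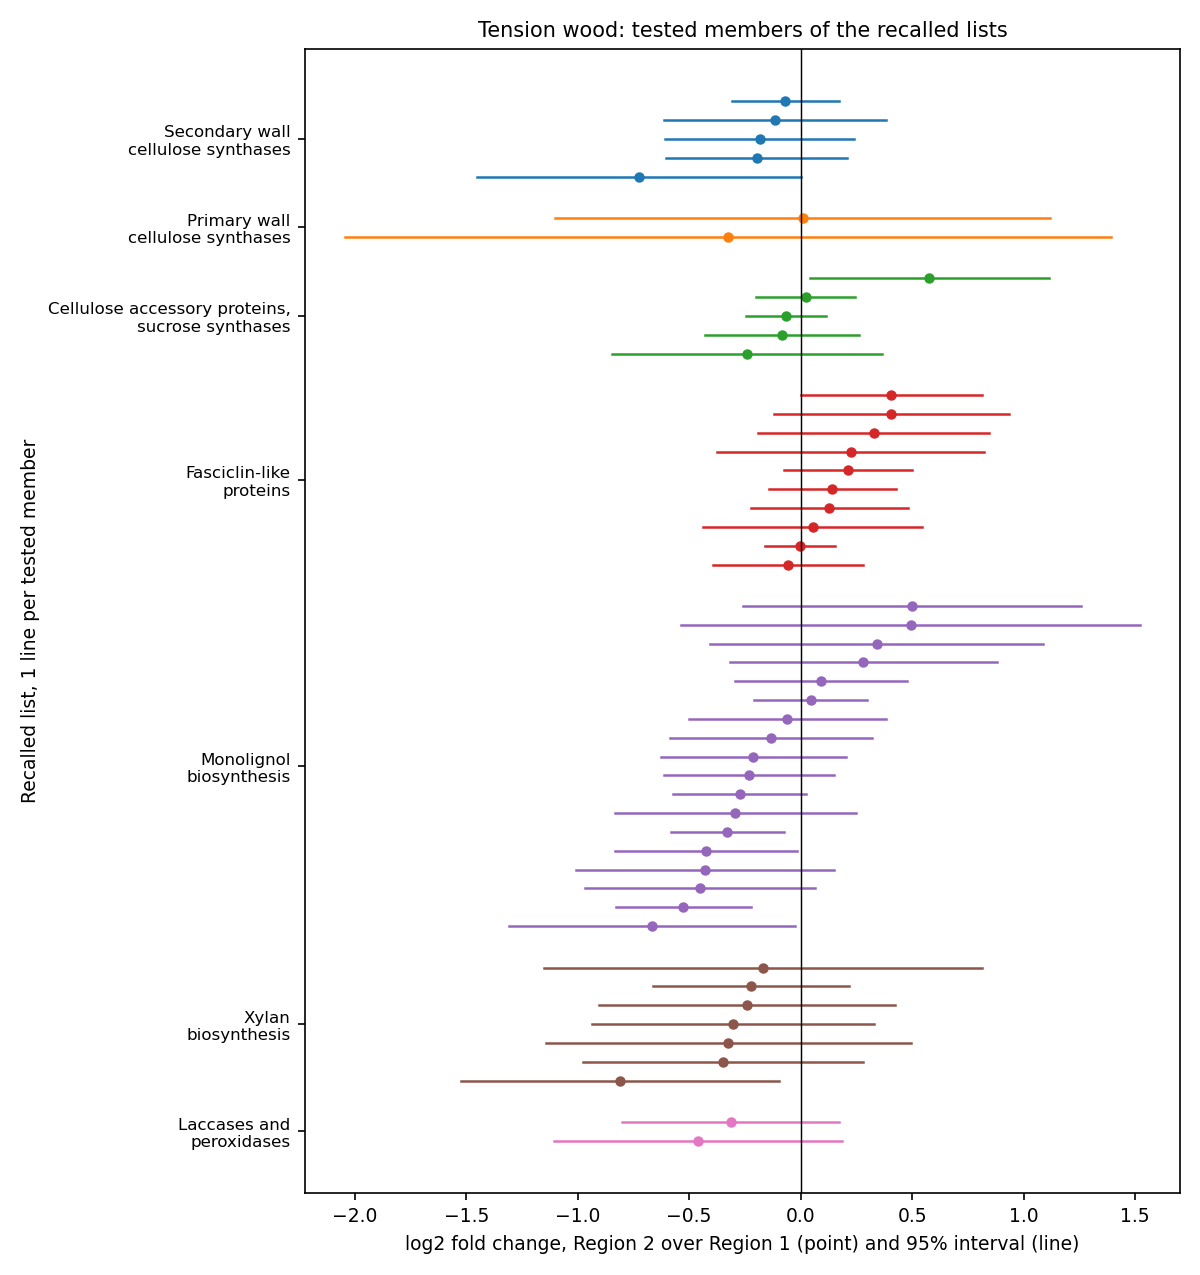
Log2 fold change of Region 2 over Region 1 for the 49 tested members of the recalled lists (points) with 95% intervals (lines), 1 line per member. All 5 secondary wall cellulose synthases and all 7 xylan members have points below 0, while 8 of 10 fasciclin-like members lie above it.

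Monolignol enzymes make the alcohols that polymerise into lignin. The list of 23 such identifiers took 2.95%, 2.92% and 2.87% of counts in the Region 2 libraries, against 3.42%, 3.47% and 3.24% in Region 1. The groups did not overlap, and the Region 2 share was lower in 3 of 3 replicates, by a mean of -0.464 percentage points ± 0.086 (SD of the differences; exact paired permutation p = 0.25, adjusted p = 0.4 over 8 lists, with 0.25 the smallest possible). As a ratio, Region 2 held 0.863 of the Region 1 share. Of the 18 tested members 12 had log2 values below 0 and 6 above, with a median of -0.22, and 0 were called (0.136% of all genes). An unadjusted p under 0.05 was reached by 4 of the 18, all lower, against 1.63% of all genes. In 5 members every Region 2 library lay below every Region 1 library, against 5.69% of all genes. Many of these members were more abundant than most tested genes, so neither rate is matched for level.

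Split by enzyme, a division made after the values were seen, the shares were as follows. The 2 cinnamate 4-hydroxylase identifiers, for the first ring hydroxylation of the pathway, took 0.404%, 0.363% and 0.289% in Region 2 against 0.523%, 0.536% and 0.420% in Region 1. One of these 2 had the smallest p of all list members, with a log2 value of -0.53 (SE 0.15, adjusted p = 0.348 by edgeR). This is the monolignol gene called elsewhere, with an adjusted p of 0.0451 by edgeR on Regions 1 and 2 alone and of 0.00455 by limma voom. Coumarate 3-hydroxylase, which adds the next hydroxyl group, took 0.127% ± 0.0025 in Region 2 and 0.171% ± 0.015 in Region 1 (SD, n = 3). Coniferaldehyde 5-hydroxylase, which opens the branch to syringyl lignin, took 0.472% ± 0.0077 in Region 2 and 0.564% ± 0.070 in Region 1. Caffeic acid O-methyltransferase, which acts on the same branch, took 0.469% ± 0.029 in Region 2 and 0.590% ± 0.0085 in Region 1. For these 4 enzymes no Region 2 library reached the lowest Region 1 library, against 5.69% of single tested genes. Most of these shares sum more than 1 identifier, and the enzymes were set apart after the values were seen. That percentage is therefore not a matched one.

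The other monolignol steps overlapped between the bands. Phenylalanine ammonia-lyase, the entry enzyme that deaminates phenylalanine, took 0.320% ± 0.0094 in Region 2 and 0.358% ± 0.065 in Region 1 (SD, n = 3). Caffeoyl-CoA O-methyltransferase took 0.390% ± 0.042 in Region 2 and 0.410% ± 0.043 in Region 1. Cinnamyl alcohol dehydrogenase, which makes the final alcohols, took 0.530% ± 0.074 in Region 2 and 0.513% ± 0.056 in Region 1. The transferase and esterase of the shikimate ester steps together took 0.083% ± 0.0071 in Region 2 and 0.105% ± 0.017 in Region 1. The share of the ligase that activates coumarate was 0.132% ± 0.017 in Region 2 and 0.145% ± 0.024 in Region 1. Cinnamoyl-CoA reductase took 0.040% ± 0.016 in Region 2 and 0.028% ± 0.016 in Region 1.

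The same monolignol list was also lower in Region 2 in all 3 replicates of normal wood, at 1.35% ± 0.059 in Region 2 and 1.57% ± 0.23 in Region 1 (SD, n = 3). The mean log2 ratio of Region 2 to Region 1 was -0.21 ± 0.04 in tension and -0.21 ± 0.18 in normal wood (SD, n = 3). The difference between the woods was 0.0014 (exact permutation p = 1, adjusted p = 1 over the 7 lists with counts in every library), with as few as 105 list counts in a normal library. In Region 3 of tension wood the list took 2.82% ± 0.086 (SD, n = 3).

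**Figure D5:**
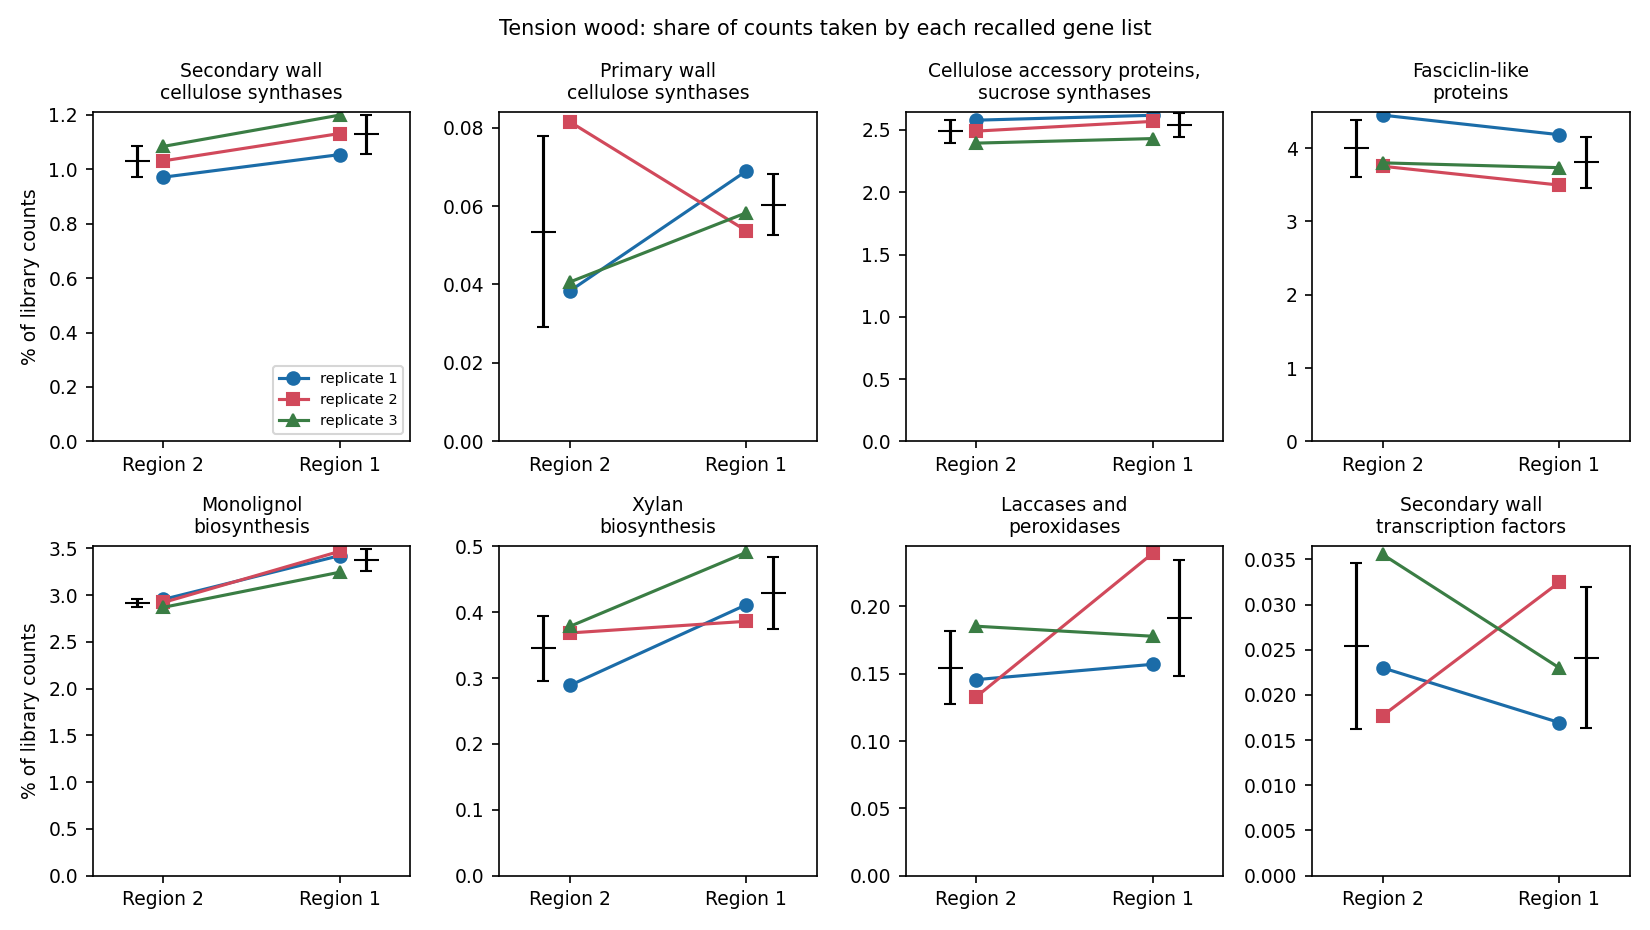
Percent of library counts taken by each of the 8 recalled lists in Region 2 (left) and Region 1 (right) of tension wood; lines join libraries of 1 replicate, black bars give mean and SD (n = 3), and each panel has its own axis from 0. The monolignol list lies between 2.87% and 2.95% in Region 2 and between 3.24% and 3.47% in Region 1.

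Xylan, the main hemicellulose of the wood wall, is built by glycosyltransferases. The xylan list took 0.289%, 0.368% and 0.378% of counts in Region 2, against 0.411%, 0.386% and 0.491% in Region 1. The groups did not overlap, though replicate 2 differed little, and the mean difference was -0.084 percentage points ± 0.058 (SD; lower in 3 of 3 replicates; exact paired permutation p = 0.25, adjusted p = 0.4). All 7 tested members had log2 values below 0, from -0.81 to -0.17 with a median of -0.30, and 0 were called. Libraries held as few as 113 counts of this list.

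Secondary wall cellulose synthases extrude the cellulose of thickened walls. Their 5 identifiers took 0.971%, 1.03% and 1.08% of counts in Region 2, against 1.05%, 1.13% and 1.2% in Region 1. The groups overlapped, yet each replicate had the lower share in Region 2, and the differences were alike (mean -0.0996 percentage points ± 0.016, SD; exact paired permutation p = 0.25, adjusted p = 0.4). The 5 log2 values ran from -0.73 to -0.07 with a median of -0.18 (-0.10 without replicate 2, -0.11 without replicate 1), and 4 of the 5 intervals lay within 2-fold. In normal wood, from as few as 8 counts in a library, the share was 0.147% ± 0.050 in Region 2 and 0.239% ± 0.025 in Region 1 (SD, n = 3), and the difference between the woods in the log2 ratio was 0.62 (exact permutation p = 0.4, adjusted p = 1). Primary wall cellulose synthases, which serve growing cells, took 0.053% ± 0.024 in Region 2 and 0.060% ± 0.0078 in Region 1, with 15 to 61 counts per library. Their 2 tested members had log2 values of -0.33 and 0.01, and the median of these turned positive in 3 alternatives.

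The list of cellulose synthesis accessory proteins and sucrose synthases took 2.49% ± 0.092 in Region 2 and 2.54% ± 0.097 in Region 1 (SD, n = 3; lower in 3 of 3 replicates; exact paired permutation p = 0.25, adjusted p = 0.4). Sucrose synthase, which splits sucrose and can feed cellulose synthesis, took 1.42% ± 0.085 in Region 2 and 1.5% ± 0.13 in Region 1. The remaining members of that list took 1.06% ± 0.010 in Region 2 and 1.04% ± 0.032 in Region 1. None of the 5 tested members was called, and their log2 values ran from -0.24 to 0.58.

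Fasciclin-like proteins were the list with the greatest share of counts. They took 4.45%, 3.75% and 3.80% in Region 2, against 4.18%, 3.49% and 3.73% in Region 1. The groups overlapped, because replicate 1 was high in both bands, but the share was higher in Region 2 in 3 of 3 replicates, by 0.196 percentage points ± 0.113 (SD; exact paired permutation p = 0.25, adjusted p = 0.4). Of the 10 tested members 8 had log2 values above 0, with a median of 0.18 (0.10 without replicate 3, 0.06 with no filter) and a range from -0.05 to 0.41, and all 10 intervals lay within 2-fold. One member, against 5.62% of all genes, lay higher with no overlap between the bands, at 1942, 1878 and 2006 CPM in Region 2 against 1469, 1455 and 1487 CPM in Region 1, and it did not pass (log2 0.41, SE 0.20, adjusted p = 0.963 by edgeR). In normal wood the list took 0.823% ± 0.214 in Region 2 and 0.775% ± 0.158 in Region 1 (SD, n = 3).

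The last 2 lists were sparse. Laccases and peroxidases, which oxidise monolignols in the wall, took 0.155% ± 0.027 in Region 2 and 0.191% ± 0.043 in Region 1 (SD, n = 3; lower in 2 of 3 replicates; exact paired permutation p = 0.5, adjusted p = 0.667). Both tested members had log2 values below 0, at -0.46 and -0.31, and neither was called. Secondary wall transcription factors held 9 to 29 counts per library, 0.025% ± 0.0092 in Region 2 and 0.024% ± 0.0078 in Region 1, and none of the 4 listed identifiers reached the filter.

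Set beside the other comparison of these bands, normal wood gave 0 calls among 383 genes (0%; 18 with an unadjusted p under 0.05). Its libraries were shallower than those of tension wood, with the floor of 3 counts at 149 to 404 CPM in Region 2 and at 222 to 266 CPM in Region 1. The 0 calls there do not show that no gene changed. The joint filter over the 18 libraries of both woods kept 663 genes. A gene could pass it without passing the filter of normal wood alone, as Potri.015G129400 did. Of the 663 genes, 0 (0%) differed in their Region 2 to Region 1 change by edgeR (48 with an unadjusted p under 0.05). When Region 3 was left out of that fit, 5 of 1341 genes differed. All 5 had negative differences, and the median of all genes was then -0.49. The 5 included the fasciclin-like member that did not overlap between the bands (-2.10) and cinnamyl alcohol dehydrogenase (-1.08). With library totals in place of TMM there were 0 calls (64 with an unadjusted p under 0.05) at a median of 0.07. Region 3 against Region 1 in tension wood, which shares the Region 1 libraries, gave 4 calls among the same 1476 genes, 2 in each direction. Both genes called for Region 2 were among them, with the same signs. The log2 fold change was 0.67 for Potri.010G012100 (adjusted p = 6.33e-06 by edgeR) and -0.99 for Potri.015G129400 (adjusted p = 0.0238 by edgeR).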

How the data were processed

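The authors deposited whole-number counts of each gene in each library, from a 3′ tag kit. The submitters' processing notes name UMI-tools, STAR and featureCounts with no version listed, and the genome build was not given in the sources used here. Whether a count is a read or a molecule is not stated, so floors cover counting error only. All columns matched a labelled sample, and 0 were left unused. Members and lists were chosen with earlier results of these data known.

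The 9 tension libraries were fitted with edgeR 4.0.16 in R 4.3.3 (TMM factors, filterByExpr at a minimum count of 10, replicate block, quasi-likelihood F test, Benjamini-Hochberg adjustment); 1476 genes holding 77.2% of the 6 libraries' counts passed the filter. SE is the log2 fold change over the root of F. Region 3 entered the filter, the scaling and the estimate of spread, and its levels are given beside the named genes. Alternatives used DESeq2 1.42.0 and limma 3.58.1. Named genes were those called, then up to 10 in each direction with the same sign in 3 replicates and no overlap, the 10 most abundant, and list members; at most 2 higher and 2 lower identifiers are printed. Of 20 lists, 12 needed descriptions and were not analysed here.

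The block follows the labels, which tie the regions to 1 biological replicate. Deviations from region means of same-numbered libraries correlated across genes at -0.026, 0.032 and 0.033, so this measure did not show the tie. For the share of secondary wall cellulose synthases, the differences within replicates had an SD of 0.016 percentage points. The SD between libraries was 0.057 in Region 2 and 0.073 in Region 1. The SD of the differences also lay below both region SDs for the accessory and fasciclin-like lists, but not for the other lists. Nothing says which replicates are separate trees, so p-values measure at most the spread between these samples. The edgeR p-values and intervals draw on spread shared across genes (61.4 total degrees of freedom), not on each gene's own replicates alone. No 2 of the 6 libraries were identical, and chi-square over degrees of freedom was 1.71 or more within a region.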

Additional observations from a re-analysis of the deposited data

How the results depend on the processing

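The 2 calls were also 2 without the replicate block (1171 genes tested), with DESeq2 size factors, library totals, no filter, a minimum count of 3 and thinning of Regions 1 and 2 to the smallest total. Calls numbered 4 (1 higher, 3 lower) with Regions 1 and 2 only and the replicate block, 0 (0 higher, 0 lower) with the DESeq2 Wald test, and 3 (2 of them lower) with limma voom. Without 1 replicate there were 0 to 1 calls, 0 to 1 higher and 0 to 1 lower, with 1 fewer replicate in the fit; the 1 called without replicate 1 was a different gene. The difference between woods gave 5 calls with Regions 1 and 2 only, and 0 without the replicate block and, as settings chosen after seeing the data, with library totals (with and without Region 3) or TMM within each wood. List shares kept their direction without each replicate, except primary wall cellulose synthases (-0.0241 to 0.00505 percentage points) and secondary wall transcription factors (-0.00435 to 0.0093); in laccases and peroxidases the value was -0.00197 without replicate 2, against -0.0369 with all 3. Of 81 recomputed list medians 3 changed sign, all of primary wall cellulose synthases (0.04 with limma voom, 0.42 without replicate 1, 0.08 without replicate 3). Without 1 replicate the monolignol median ran from -0.34 to -0.12, the xylan median from -0.55 to -0.09, the secondary wall cellulose synthase median from -0.23 to -0.10 and the fasciclin-like median from 0.10 to 0.22. With no filter the median of all genes moved to -0.12. With 3 pairs no exact paired test could pass the threshold. Where not stated, the cause was not tested.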
